A study of Arabidopsis thaliana with 32 samples.

Results

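The 4 subgroup Ib basic helix-loop-helix (bHLH) genes of Arabidopsis thaliana are bHLH38 (AT3G56970), bHLH39 (AT3G56980), bHLH100 (AT2G41240) and bHLH101 (AT5G04150). They were taken by locus identifier from the 33607 genes measured, and all 4 were found in every table. The study sequenced polyadenylated RNA from roots and from whole rosettes of 4 lines on 2 media, with 2 libraries in each of 16 groups. IMA1 OE and IMA3 OE carry the open reading frame of IMA1 or IMA3 behind the 35S promoter, which is active in most plant cells. The line opt3-2 is a T-DNA insertion mutant of OPT3 and carries no overexpression construct. EYFP OE, the transgenic control line, carries 35S:EYFP in the vector that was also used for both IMA lines. No untransformed wild type is among the samples, so opt3-2 was set against a transgenic line. Seedlings of every group grew for 10 days on full ES medium and were then moved for 72 hours to the deficient medium, which lacked Fe and contained the Fe chelator ferrozine, or to full ES medium as the control. The sample labels give the ferrozine concentration as 100 µM and the series description as 300 µM. The number of independent transformants per construct and of plants per library is not given in the sources used here.

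In roots, the proteins of subgroup Ib act as dimers with FIT, the bHLH factor that switches on Fe acquisition genes such as the ferric reductase FRO2 and the Fe transporter IRT1. Transcription of the subgroup Ib genes is itself driven by other bHLH factors, the subgroup IVc proteins and URI, and the E3 ligase BTS marks subgroup IVc proteins for degradation. IRON MAN peptides such as IMA1 and IMA3 bind BTS and its relatives and thereby protect those factors. OPT3 moves Fe into the phloem, and mutants that lack it are known for Fe uptake genes that stay active in roots of plants with Fe-rich leaves.

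The 4 genes lie at 3 places in the genome, all on the minus strand (RefSeq annotation, build TAIR10.1). bHLH38 at chr3:21084035-21085245 and bHLH39 at chr3:21086390-21087710 are neighbours with 1144 bases between them. bHLH100 lies at chr2:17198037-17199454 and bHLH101 at chr5:1138410-1139633. bHLH38, bHLH39 and bHLH100 have 2 exons, and bHLH101 has 3. The 250 bases before each annotated start are shown because all 4 genes moved together in most comparisons. They were searched for CANNTG, the E-box that bHLH proteins can bind, with N for any base, on both strands. CACGTG, the G-box, is one form of CANNTG. The capitals mark every CANNTG, and the strand of the gene is printed 5′ to 3′.
bHLH38 promoter, chr3:21085246-21085495, minus strand: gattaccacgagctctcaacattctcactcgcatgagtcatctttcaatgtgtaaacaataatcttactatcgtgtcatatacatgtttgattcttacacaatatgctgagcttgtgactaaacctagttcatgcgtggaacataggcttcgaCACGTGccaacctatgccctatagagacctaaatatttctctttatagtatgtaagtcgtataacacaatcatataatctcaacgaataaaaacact
bHLH39 promoter, chr3:21087711-21087960, minus strand: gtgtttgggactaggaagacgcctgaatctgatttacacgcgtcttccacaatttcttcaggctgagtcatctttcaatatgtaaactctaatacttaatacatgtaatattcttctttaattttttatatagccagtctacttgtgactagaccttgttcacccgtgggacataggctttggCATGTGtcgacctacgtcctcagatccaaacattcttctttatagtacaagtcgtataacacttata
bHLH100 promoter, chr2:17199455-17199704, minus strand: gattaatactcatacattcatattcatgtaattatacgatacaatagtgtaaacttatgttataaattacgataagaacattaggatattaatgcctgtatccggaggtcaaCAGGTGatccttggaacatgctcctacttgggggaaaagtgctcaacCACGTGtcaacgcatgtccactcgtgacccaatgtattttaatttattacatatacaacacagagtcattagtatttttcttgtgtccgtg
bHLH101 promoter, chr5:1139634-1139883, minus strand: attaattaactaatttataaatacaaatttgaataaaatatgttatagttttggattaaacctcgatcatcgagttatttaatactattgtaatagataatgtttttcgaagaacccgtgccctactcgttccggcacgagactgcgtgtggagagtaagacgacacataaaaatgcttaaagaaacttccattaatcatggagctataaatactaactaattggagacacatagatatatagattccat
The G-box CACGTG stood at -97 to -92 from the start in bHLH38 and at -91 to -86 in bHLH100. bHLH39 held CATGTG at -67 to -62, inside a stretch that resembles the stretch around the G-box of bHLH38. Over 66 bases centred on the motif, 42 bases (63.6%) were identical between bHLH38 and bHLH39, and the motif itself differed by C3T (bHLH38 first, counted from the 5′ end of the motif). bHLH100 also held CAGGTG at -138 to -133, and the window of bHLH101 held no CANNTG. Over 27443 promoters of the same length, 6.49% held CACGTG and 55.3% held CANNTG. A match in letters describes the sequence and shows no bound site.

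The coding sequences fall into a close pair and more distant relatives. bHLH38 and bHLH39 shared 83.1% of aligned coding bases, bHLH38 and bHLH100 shared 70%, and bHLH39 and bHLH100 shared 69.1%. bHLH101 stood further away, at 52.8% to 55.2% of bases shared with the others. The longest identical run between the coding sequences of any pair was 34 bases, between bHLH38 and bHLH39. No pair of whole transcripts shared a run of 50 bases. How reads that match several genes were handled is not given in the sources used here, so part of a value of bHLH38 could come from bHLH39 and the reverse. The annotated transcripts of 2 of the 4 genes overlap a gene on the opposite strand, bHLH38 with PIP5K4 by 386 bases and bHLH101 with GLU1 by 79 bases. In RPKM, reads scaled for gene length and library size, PIP5K4 was at 3.86 to 5.68 RPKM in all root libraries and at 2.77 to 4.31 RPKM in all rosette libraries. GLU1, which encodes a chloroplast glutamate synthase, was at 1.51 to 3.74 RPKM in roots and at 319 to 489 RPKM in rosettes. The library kit keeps strand, but whether the counting used it is not stated.

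RPKM is a per-length scale on which levels of different genes can be compared. The deposited tables hold no counts, so the depth of each library is unknown and no counting error could be given. The summed RPKM of 5 photosynthesis genes was 18790 to 30980 in rosettes and 37.2 to 189 in roots, and that of 6 root markers was 2058 to 4497 in roots and 86.9 to 189 in rosettes, where 1 of the 6 stayed under 0.5 RPKM in every library. The separately listed construct features were at 199 to 329 RPKM for IMA1 and 26.6 to 40.9 RPKM for IMA3 in their own lines, and at no more than 0.251 RPKM and 0.05 RPKM in other lines. OPT3 was at 2.77 to 4.17 RPKM in opt3-2 roots, against 9.59 to 98.2 RPKM in EYFP OE roots. In 3 libraries the summed RPKM of 3 ribosomal RNA-type features stood apart, at 40640 and 89780 in IMA3 OE roots on the deficient medium and at 40000 in replicate 2 of opt3-2 rosettes on control medium, against 2210 to 13470 in the other 29 libraries. Tissues were sampled whole, so a change in the number of expressing cells and a change in RNA per cell cannot be told apart.

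In roots of the control line EYFP OE, all 4 genes were much higher on the deficient medium. bHLH100, a root and leaf Fe-response factor, was at 82.5 and 131 RPKM on the deficient medium, against 0.679 and 0.754 RPKM on control medium. bHLH38 was at 99.3 and 127 RPKM on the deficient medium, against 3.04 and 2.49 RPKM on control medium. bHLH39, the neighbour of bHLH38, was at 89.7 and 130 RPKM on the deficient medium, against 5.80 and 2.61 RPKM on control medium. The least abundant member on the deficient medium was bHLH101, and in none of the 4 genes did the libraries of the 2 media overlap. With 2 libraries a group, non-overlap alone is weak evidence, and its share over all genes was not counted, here or below. bHLH101 was at 20.1 and 29.8 RPKM on the deficient medium, against 1.54 and 1.24 RPKM on control medium. The log2 fold change, taken on log2(RPKM + 0.5), was 6.46 for bHLH100 (SE 0.33, limma adjusted p = 6.65e-07) and 5.15 for bHLH38 (SE 0.26, limma adjusted p = 6.65e-07). It was 4.65 for bHLH39 (SE 0.34, limma adjusted p = 1.38e-05) and 3.76 for bHLH101 (SE 0.28, limma adjusted p = 1.38e-05). A gene is called here at an adjusted p under 0.05, and 2.13% of the 20577 genes tested in roots were called higher in this comparison. Ranked by fold change, the 4 genes took places 5, 10, 14 and 27. The added 0.5 RPKM understates changes of genes with low values, bHLH100 on control medium among them.

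In EYFP OE rosettes, levels on control medium were near the bottom of the scale in replicate 2 and somewhat higher in replicate 1, and all 4 genes were again far higher on the deficient medium. bHLH100 was the most abundant, at 102 and 401 RPKM on the deficient medium, against 2.54 and 0.19 RPKM on control medium. bHLH38 was at 76.5 and 217 RPKM on the deficient medium, against 0.766 and 0.02 RPKM on control medium. bHLH39 was at 46.7 and 149 RPKM on the deficient medium, against 0.929 and 0.02 RPKM on control medium. Replicate 2 was the higher library on the deficient medium and the lower one on control medium for every member. bHLH101 was at 39.5 and 85.3 RPKM on the deficient medium, against 1.57 and 0.106 RPKM on control medium. The media did not overlap for any member, but replicates differed by 2.16-fold to 3.92-fold on the deficient medium and by 13.4-fold to 46.4-fold on control medium. The log2 fold change was 7.33 for bHLH38 (SE 0.63, limma adjusted p = 0.000996) and 7.17 for bHLH100 (SE 0.66, limma adjusted p = 0.00115). It was 6.61 for bHLH39 (SE 0.65, limma adjusted p = 0.00174) and 5.71 for bHLH101 (SE 0.66, limma adjusted p = 0.0041). They ranked 1, 2, 3 and 7 of the 19521 genes tested in rosettes, of which 0.174% were called higher. The mean of 0.5 RPKM that a gene needed for the test was reached in rosettes through the deficient groups, since bHLH38 and bHLH39 averaged 0.393 ± 0.527 and 0.474 ± 0.643 RPKM in EYFP OE on control medium (SD, n = 2). Without replicate 2 of the deficient group, bHLH101 was no longer called (limma adjusted p = 0.0576). With the spread taken from these 4 libraries alone, 0 of the 4 genes were called (0% of all genes).

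**Figure D1:**
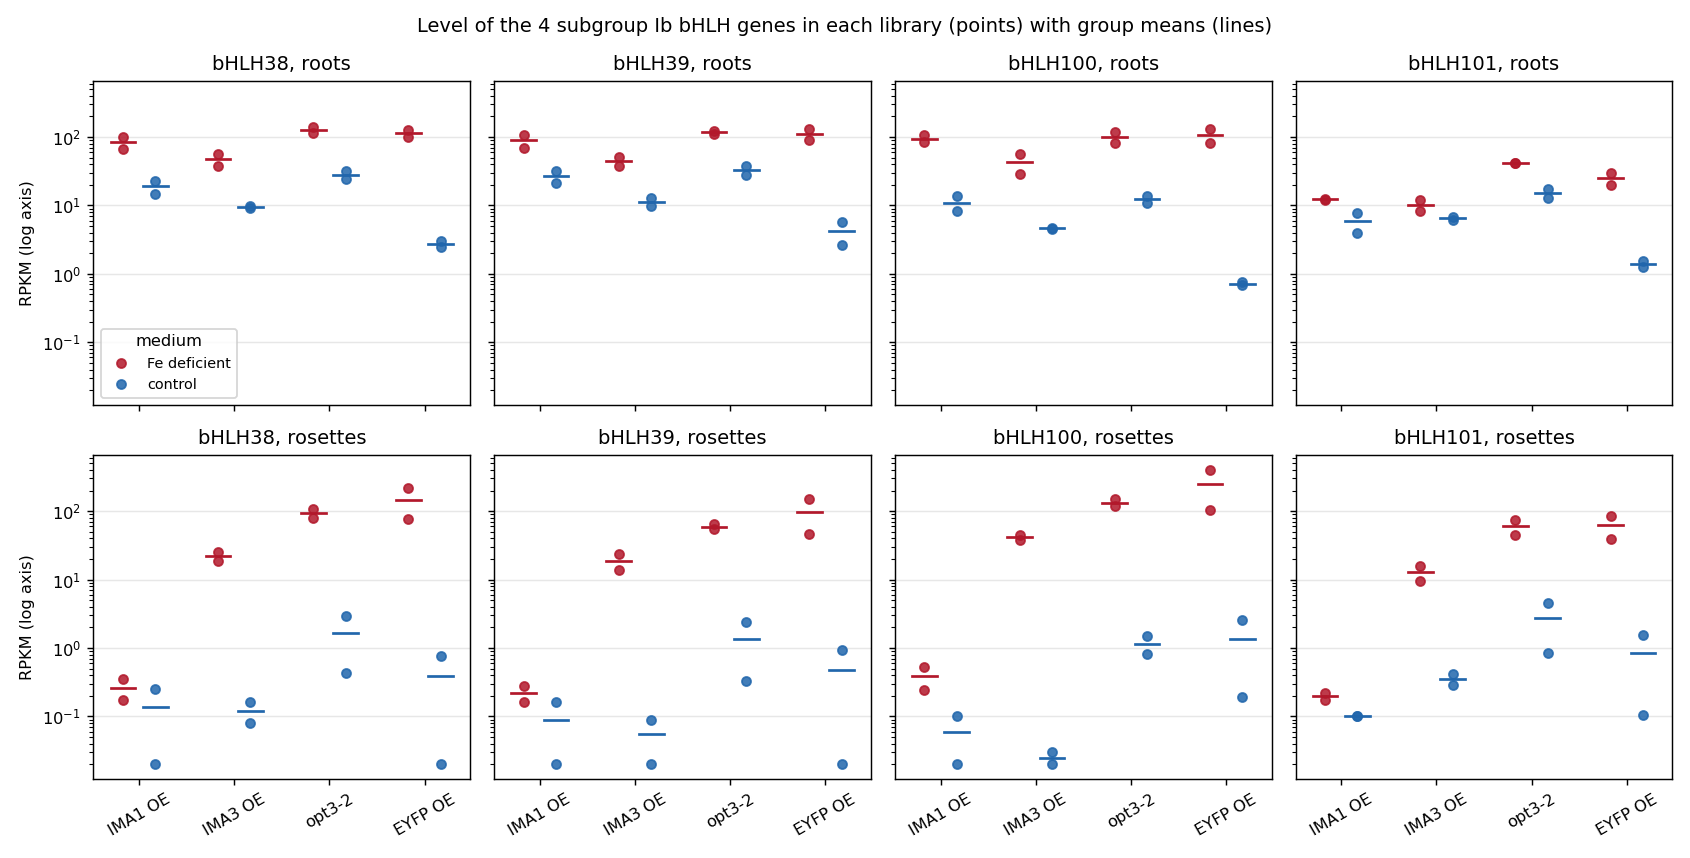
RPKM of each of the 4 genes in every library (log scale), in roots and rosettes, by line and medium; points are single libraries. In roots on control medium the libraries of IMA1 OE, IMA3 OE and opt3-2 lie above those of EYFP OE, and in rosettes on the deficient medium those of IMA1 OE lie under 1 RPKM.

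On control medium, roots of IMA1 OE, IMA3 OE and opt3-2 held more RNA of these genes than EYFP OE roots. By group means the order was opt3-2, IMA1 OE, IMA3 OE for bHLH38, bHLH39 and bHLH100. bHLH100 was at 13.5 and 8.41 RPKM in IMA1 OE roots, at 4.58 and 4.76 RPKM in IMA3 OE roots and at 13.6 and 10.9 RPKM in opt3-2 roots, against 0.679 and 0.754 RPKM in EYFP OE roots. bHLH38 was at 23.1 and 14.8 RPKM in IMA1 OE roots, at 9.93 and 9.20 RPKM in IMA3 OE roots and at 31.8 and 24.7 RPKM in opt3-2 roots, against 3.04 and 2.49 RPKM in EYFP OE roots. bHLH39 was at 31.9 and 21.3 RPKM in IMA1 OE roots, at 13.02 and 9.70 RPKM in IMA3 OE roots and at 37.5 and 27.6 RPKM in opt3-2 roots, against 5.80 and 2.61 RPKM in EYFP OE roots. For bHLH101 the group mean of IMA3 OE lay above that of IMA1 OE, and their libraries overlapped. bHLH101 was at 7.75 and 3.91 RPKM in IMA1 OE roots, at 6.83 and 6.07 RPKM in IMA3 OE roots and at 17.5 and 12.8 RPKM in opt3-2 roots, against 1.54 and 1.24 RPKM in EYFP OE roots. No library of these lines overlapped an EYFP OE library for any member, and the share of all genes so separated was not counted. The libraries of opt3-2 and IMA1 OE overlapped for bHLH39 and bHLH100 and were apart for bHLH38 and bHLH101. The 3 comparisons share the same pair of EYFP OE libraries, so they are not independent of each other.

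In IMA1 OE roots on control medium, all 4 genes were called higher than in EYFP OE, in a comparison that called 0.34% of all genes higher. Log2 fold changes were 3.20 for bHLH100 (SE 0.33, limma adjusted p = 0.00107), 2.56 for bHLH39 (SE 0.34, limma adjusted p = 0.00671) and 2.53 for bHLH38 (SE 0.26, limma adjusted p = 0.00112). bHLH101 had the smallest change, 1.67 (SE 0.28, limma adjusted p = 0.0297). The call of bHLH101 was lost without replicate 1 or 2 of EYFP OE or replicate 1 of IMA1 OE (adjusted p of 0.162 to 0.27). That of bHLH39 was lost without replicate 2 of EYFP OE or replicate 1 of IMA1 OE (adjusted p = 0.0541 and 0.0993). With the spread of these 4 libraries alone 0 of the 4 genes were called (0.0389% of all genes), and the authors' deposited table called 1 of the 4 (0.253% of all genes).

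In IMA3 OE roots on control medium, 3 of the 4 genes were called higher, against 0.194% of all genes. Their changes on the log2 scale were 2.07 for bHLH100 (SE 0.33, limma adjusted p = 0.0318), 1.86 for bHLH101 (SE 0.28, limma adjusted p = 0.023) and 1.60 for bHLH38 (SE 0.26, limma adjusted p = 0.0387). bHLH39 did not pass, with 1.38 (SE 0.34, limma adjusted p = 0.271). Each of the 3 calls was lost without any one of the 4 libraries, replicates 1 and 2 of IMA3 OE and of EYFP OE, with adjusted p of 0.156 to 0.298 over the 3 genes. The authors' deposited table called 0 of the 4 genes (0.214% of all genes).

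In opt3-2 roots on control medium, all 4 genes were called higher, against 0.909% of all genes, and no call was lost without any one library. The log2 fold change was 3.37 for bHLH100 (SE 0.33, limma adjusted p = 0.000275) and 3.122 for bHLH38 (SE 0.26, limma adjusted p = 0.000115). It was 3.03 for bHLH101 (SE 0.28, limma adjusted p = 0.0002) and 2.87 for bHLH39 (SE 0.34, limma adjusted p = 0.00144). The authors' deposited table called 2 of the 4 (0.389% of all genes).

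In rosettes on control medium the picture of the roots was not seen, and no member was called in any of the lines. The 4 genes were at 0.02 to 0.255 RPKM in IMA1 OE rosettes, at 0.02 to 0.42 RPKM in IMA3 OE rosettes and at 0.325 to 4.61 RPKM in opt3-2 rosettes, against 0.02 to 2.54 RPKM in EYFP OE rosettes. The line values overlapped those of EYFP OE for 2 of the 4 genes or more in every line, and at such levels a few reads can set a value. Log2 fold changes lay between -1.40 and -0.39 in IMA1 OE and between -1.46 and -0.39 in IMA3 OE. They lay between 0.13 and 1.19 in opt3-2, with limma adjusted p of 0.732 or more over the 3 lines. At an unadjusted p under 0.05, limma picked 0 of the 4 genes in IMA1 OE (6.78% of all genes), 1 in IMA3 OE (bHLH100; 3.19%) and 0 in opt3-2 (8.07%). The authors' deposited tables called 0 in each, and 0.569%, 0.215% and 0.891% of all genes in IMA1 OE, IMA3 OE and opt3-2. In these comparisons limma called 0.0205%, 0% and 0.143% of all genes higher and 0.0461%, 0% and 0.0307% lower in IMA1 OE, IMA3 OE and opt3-2. The opt3-2 group includes the replicate 2 library with ribosomal RNA-type features at 40000 RPKM, which was the lower one for every member, and the part of this in its values was not tested.

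On the deficient medium, root levels in the 3 lines overlapped or lay below those of EYFP OE, except for bHLH101 of opt3-2, which lay above. IMA3 OE roots had the lowest group mean for every member, with bHLH38 at 37.5 and 56.4 RPKM, bHLH39 at 38.3 and 51.3 RPKM, bHLH100 at 28.7 and 57.1 RPKM and bHLH101 at 8.37 and 12.2 RPKM. All of these lay below both EYFP OE libraries, and those of bHLH101 overlapped IMA1 OE. IMA1 OE roots held 67.1 to 109 RPKM of bHLH38, bHLH39 and bHLH100, in ranges that overlapped those of EYFP OE. Their bHLH101, at 12.6 and 12.1 RPKM, lay below EYFP OE, at 20.1 and 29.8 RPKM. opt3-2 roots held bHLH101 at 41.2 and 42.4 RPKM, above both EYFP OE libraries, while its other 3 members overlapped EYFP OE.

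None of these root differences was called by limma. In IMA3 OE the log2 fold change was -1.23 for bHLH38, -1.22 for bHLH39, -1.30 for bHLH100 and -1.19 for bHLH101 (limma adjusted p of 0.122 to 0.249). In IMA1 OE it was -0.97 for bHLH101 (limma adjusted p = 0.627), and in opt3-2 it was 0.75 for bHLH101 (limma adjusted p = 0.874). An unadjusted p under 0.05 was reached by bHLH101 alone in IMA1 OE (4.66% of all genes) and in opt3-2 (4.99%) and by all 4 genes in IMA3 OE (7.19%). The authors' deposited tables called 0 of the 4 in IMA1 OE (0.18% of all genes), 3 in IMA3 OE (0.389%) and 0 in opt3-2 (0.238%). Over all genes limma called 0.0778% higher and 0.0535% lower in IMA1 OE, 0.0972% and 0.034% in IMA3 OE, and 0.0583% and 0.0292% in opt3-2. Both IMA3 OE libraries are those with ribosomal RNA-type features at 40640 and 89780 RPKM, and the part of this in the lower values was not tested.

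In rosettes on the deficient medium, IMA1 OE stood apart from every other line. bHLH100 was at 0.53 and 0.245 RPKM in IMA1 OE rosettes, at 38.0 and 45.1 RPKM in IMA3 OE rosettes and at 149 and 118 RPKM in opt3-2 rosettes, against 102 and 401 RPKM in EYFP OE rosettes. bHLH38 was at 0.35 and 0.175 RPKM in IMA1 OE rosettes, at 18.8 and 25.4 RPKM in IMA3 OE rosettes and at 107 and 78.5 RPKM in opt3-2 rosettes, against 76.5 and 217 RPKM in EYFP OE rosettes. bHLH39 was at 0.275 and 0.16 RPKM in IMA1 OE rosettes, at 13.96 and 23.5 RPKM in IMA3 OE rosettes and at 63.9 and 54.5 RPKM in opt3-2 rosettes, against 46.7 and 149 RPKM in EYFP OE rosettes. IMA3 OE was intermediate, and opt3-2 overlapped EYFP OE, for each of the 4 genes. bHLH101 was at 0.175 and 0.22 RPKM in IMA1 OE rosettes, at 9.48 and 15.97 RPKM in IMA3 OE rosettes and at 75.2 and 45.5 RPKM in opt3-2 rosettes, against 39.5 and 85.3 RPKM in EYFP OE rosettes.

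All 4 genes were called lower in IMA1 OE than in EYFP OE rosettes on the deficient medium, in a comparison that called 0.22% of all genes lower. The log2 fold change was -7.84 for bHLH100 (SE 0.66, limma adjusted p = 0.000365) and -7.42 for bHLH38 (SE 0.63, limma adjusted p = 0.000365). It was -6.87 for bHLH39 (SE 0.65, limma adjusted p = 0.00063) and -6.39 for bHLH101 (SE 0.66, limma adjusted p = 0.00104), and no call was lost without any one library. With the spread of these 4 libraries alone 0 of the 4 genes were called (0.0102% of all genes), whereas the authors' deposited table called all 4 lower (0.318% of all genes). In IMA3 OE the log2 fold change lay between -2.53 and -2.17 (limma adjusted p of 0.455 to 0.824), all 4 genes had an unadjusted p under 0.05 (3.59% of all genes), and limma called 0% of all genes lower and 0.0359% higher. All 4 members were called lower in the authors' deposited table (0.256% of all genes). In opt3-2 it lay between -0.62 and 0.00 (limma adjusted p = 1 for each), no member had an unadjusted p under 0.05 (3.34% of all genes), and limma called 0.0256% of all genes lower and 0.0205% higher. The authors' deposited table called 1 member lower there (0.164% of all genes).

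**Figure D2:**
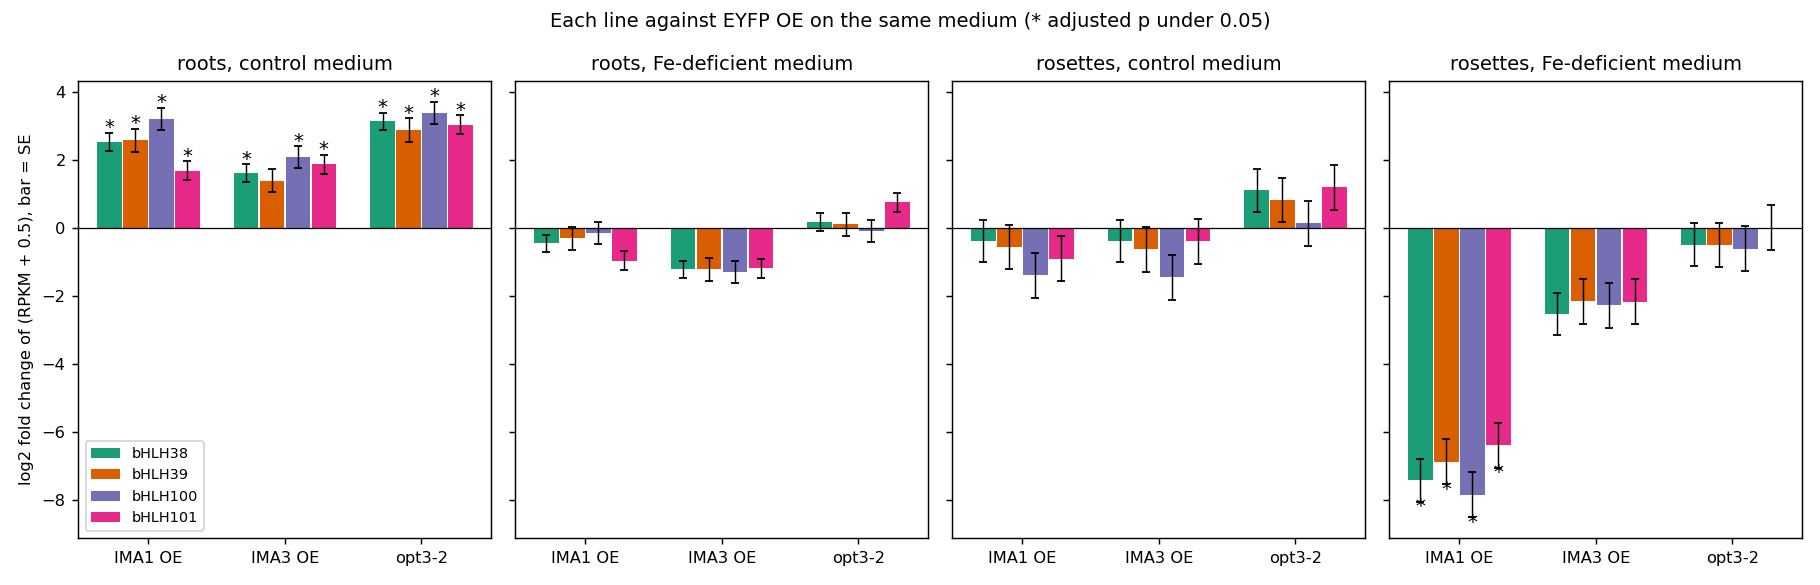
Log2 fold change of each of the 4 genes in each line against EYFP OE, on log2(RPKM + 0.5), by tissue and medium. Bars are estimates, whiskers are SE, and asterisks mark genes called at an adjusted p under 0.05. The called values are the higher values in roots on control medium, except bHLH39 in IMA3 OE, and the lower values of IMA1 OE in rosettes on the deficient medium.

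Within each of the 3 lines all 4 genes had a higher group mean in roots on the deficient medium, and most were called. By limma all 4 had an unadjusted p under 0.05 in each line, as had 6.88% of all genes in IMA1 OE, 5.87% in IMA3 OE and 8.79% in opt3-2. In IMA1 OE roots 3 of the 4 genes were called higher, against 0.953% of all genes, with log2 fold changes of 3.10 for bHLH100 (SE 0.33, limma adjusted p = 0.000538), 2.16 for bHLH38 (SE 0.26, limma adjusted p = 0.00128) and 1.76 for bHLH39 (SE 0.34, limma adjusted p = 0.0324). In IMA3 OE roots the same 3 genes were called, against 0.627% of all genes, with 3.03 for bHLH100 (SE 0.33, limma adjusted p = 0.00111), 2.28 for bHLH38 (SE 0.26, limma adjusted p = 0.00178) and 2.00 for bHLH39 (SE 0.34, limma adjusted p = 0.0276). bHLH101 did not pass in either line, at 1.13 in IMA1 OE (limma adjusted p = 0.118) and 0.66 in IMA3 OE (limma adjusted p = 0.767). In opt3-2 roots all 4 genes were called, against 0.433% of all genes, with 2.99 for bHLH100 (SE 0.33, limma adjusted p = 0.00141), 2.18 for bHLH38 (SE 0.26, limma adjusted p = 0.00235), 1.87 for bHLH39 (SE 0.34, limma adjusted p = 0.0286) and 1.50 for bHLH101 (SE 0.28, limma adjusted p = 0.0308). In opt3-2 the calls of bHLH39 and bHLH101 were lost without any one of the 4 libraries, replicates 1 and 2 on either medium (adjusted p of 0.101 to 0.238 and of 0.0843 to 0.248). The call of bHLH39 was lost in IMA1 OE without deficient replicate 1, control replicate 1 or control replicate 2 (0.0612 to 0.34), and in IMA3 OE without deficient replicate 2, control replicate 1 or control replicate 2 (0.125 to 0.302).

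The difference between each line's root response and that of EYFP OE was tested directly. For IMA1 OE the line response minus that of EYFP OE was -3.35 to -2.64 on the log2 scale, and 3 of the 4 genes were called, all but bHLH39 (-2.88, limma adjusted p = 0.0912). Without EYFP OE control replicate 1, bHLH39 was called as well (-3.39, limma adjusted p = 0.0402). For IMA3 OE it was -3.36 to -2.61, with bHLH38, bHLH100 and bHLH101 called and bHLH39 at -2.61 (limma adjusted p = 0.104). For opt3-2 it was -3.47 to -2.28, and all 4 were called. Over all genes tested with the filter, 0.0632%, 0.112% and 0.423% were called lower for IMA1 OE, IMA3 OE and opt3-2. With no filter on low values 0 of the 4 were called for IMA1 OE, 0 for IMA3 OE and 1 for opt3-2. The share of all genes called without the filter is not given here. The higher starting levels on control medium, given above, are part of each difference, and values of single genes follow in the closing section.

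In rosettes the change between the media was small in IMA1 OE and large in IMA3 OE and opt3-2. The 3 lines were not tested against each other. In IMA1 OE no member was called between the media, with log2 fold changes of 0.21 to 0.66 (limma adjusted p = 1 for each). Levels there were 0.16 to 0.53 RPKM on the deficient medium and 0.02 to 0.255 RPKM on control medium. Limma called 0 of 19521 genes (0% in either direction), and 267 genes, 0 of the 4 members among them, had an unadjusted p under 0.05. Limma called 11 genes with no filter on low values and 4 without control replicate 1 of IMA1 OE, and 0 of the 4 members in both of these fits. In IMA3 OE rosettes bHLH100, bHLH38 and bHLH39 were called higher, against 0.0359% of all genes, by 6.32 (SE 0.66, limma adjusted p = 0.00691), 5.17 (SE 0.63, limma adjusted p = 0.0221) and 5.07 (SE 0.65, limma adjusted p = 0.028). bHLH101 had a log2 fold change of 3.92 there (SE 0.66, limma adjusted p = 0.136). Each of these 3 calls was lost without any one of the 4 libraries, replicates 1 and 2 on either medium (adjusted p of 0.103 to 0.346). In opt3-2 rosettes all 4 were called, against 0.123% of all genes, by 6.40 for bHLH100 (SE 0.66, limma adjusted p = 0.00349), 5.72 for bHLH38 (SE 0.63, limma adjusted p = 0.00524), 5.29 for bHLH39 (SE 0.65, limma adjusted p = 0.00957) and 4.52 for bHLH101 (SE 0.66, limma adjusted p = 0.026). Without deficient replicate 1 or 2 none of the 4 was called, and without control replicate 2, the library high in ribosomal RNA-type features, only bHLH38 was (adjusted p over the lost calls 0.0501 to 0.254).

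In rosettes the response of IMA1 OE minus that of EYFP OE was -7.04 for bHLH38, -6.31 for bHLH39, -6.44 for bHLH100 and -5.48 for bHLH101 on the log2 scale. None passed (SE 0.89 to 0.94, limma adjusted p of 0.0557 to 0.132), although all 4 had an unadjusted p under 0.05 (1.86% of all genes), and limma called 0.00512% of all genes lower and 0% higher. Leaving out replicate 1 of EYFP OE on control medium brought all 4 under the threshold, and leaving out replicate 1 of EYFP OE on the deficient medium brought bHLH38, bHLH39 and bHLH100 under it. For IMA3 OE the differences were -2.14 to -0.81 and for opt3-2 they were -1.60 to -0.74 (limma adjusted p = 1 for each). At an unadjusted p under 0.05 limma picked 1 of the 4 in IMA3 OE (bHLH38; 1.29% of all genes) and 0 in opt3-2 (2.24%), and over all genes it called 0% higher and 0% lower in either line.

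**Figure D3:**
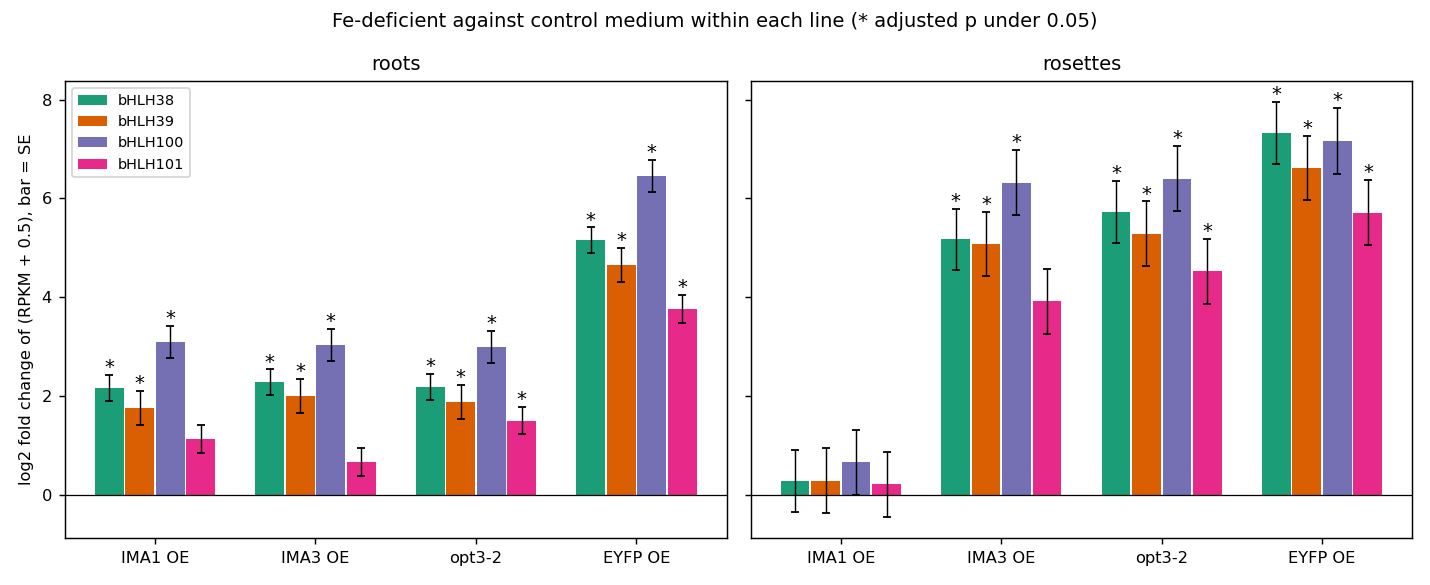
Log2 fold change of each of the 4 genes between the deficient and control medium within each line, on log2(RPKM + 0.5), in roots and rosettes. Bars are estimates, whiskers are SE, and asterisks mark called genes. The root responses of IMA1 OE, IMA3 OE and opt3-2 lie below those of EYFP OE, and in rosettes the values of IMA1 OE lie between 0.21 and 0.66.

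The lines on control medium were also set against EYFP OE on the deficient medium, to place their levels within the range of the control line. In roots, the log2 fold change of bHLH100 was -3.25 in IMA1 OE, -4.37 in IMA3 OE and -3.07 in opt3-2, and all 3 were called. All 4 genes were called lower in IMA1 OE (log2 fold change -3.25 to -2.05, limma adjusted p of 0.000234 to 0.00802, 1.56% of all genes called lower). The same held in IMA3 OE (-4.37 to -1.90, limma adjusted p of 2.53e-05 to 0.003, 1.43% of all genes). In opt3-2 bHLH38, bHLH39 and bHLH100 were called (-3.07 to -1.76, limma adjusted p of 0.000571 to 0.0219, 0.967% of all genes). bHLH101 of opt3-2 was at 17.5 and 12.8 RPKM, against 20.1 and 29.8 RPKM in deficient EYFP OE, and its difference of -0.72 (SE 0.28) did not pass (limma adjusted p = 0.352). In IMA1 OE bHLH39 was no longer called without deficient EYFP OE replicate 2 or control IMA1 OE replicate 2 (adjusted p = 0.0968 and 0.0692). In opt3-2 bHLH39 was no longer called without deficient EYFP OE replicate 2 or either opt3-2 library (adjusted p of 0.0709 to 0.224).

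In rosettes all 4 genes were called lower in each of the 3 lines on control medium than in EYFP OE on the deficient medium. On the log2 scale the change was -8.51 to -6.63 in IMA1 OE (limma adjusted p of 0.000199 to 0.000622), -8.60 to -6.10 in IMA3 OE (0.00026 to 0.00164) and -6.94 to -4.46 in opt3-2 (0.000775 to 0.00823). The shares of all genes called lower were 0.302%, 0.2% and 0.328%. In opt3-2 bHLH101 was no longer called without deficient EYFP OE replicate 2 or control opt3-2 replicate 2 (adjusted p = 0.0665 and 0.0781).

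The difference between rosettes and roots was tested for the EYFP OE response and for each line on control medium. The labels give an RNA integrity number, a score of RNA quality, of 9.8 to 10 for roots and 8.3 to 8.7 for rosettes. The part of this in the tissue differences was not tested. The EYFP OE response was larger in rosettes by 0.71 to 2.18 on the log2 scale, and none of the 4 differences passed (limma adjusted p of 0.453 to 1, with 0.0435% of all genes called higher and 0.462% lower). All but bHLH100 had an unadjusted p under 0.05, as had 4.43% of all genes. In rosettes on control medium bHLH100 was at 0.02 and 0.1 RPKM in IMA1 OE and at 2.54 and 0.19 RPKM in EYFP OE, and it was not called there. For IMA1 OE on control medium the effect in rosettes minus that in roots was -4.60 for bHLH100 (SE 0.74, limma adjusted p = 0.0262), against 0.049% of all genes called lower. That call was lost without EYFP OE rosette replicate 1, IMA1 OE root replicate 1 or either IMA1 OE rosette replicate (adjusted p of 0.0563 to 0.429), and with no filter on low values. The other 3 members had differences of -3.13 to -2.58 in IMA1 OE (limma adjusted p of 0.332 to 0.62). In IMA3 OE the 4 differences were -3.53 to -1.99 (limma adjusted p of 0.492 to 1) and in opt3-2 they were -3.25 to -1.84 (0.155 to 0.884), with all 4 at an unadjusted p under 0.05 in both lines (1.68% and 4.65% of all genes). Over all genes 0.00544% were called in either direction in IMA3 OE, and 0.0218% higher and 0.114% lower in opt3-2.

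The make-up of the family's RNA differed between media and tissues, as described by each gene's share of the summed RPKM of the 4. In roots on control medium bHLH39 held the largest share, with group means of 35.3% to 44.6%, and bHLH100 held 8.38% to 17.6%. In roots on the deficient medium bHLH38, bHLH39 and bHLH100 held similar shares, at 29.7% to 33.1%, 30.4% to 31.7% and 25.6% to 34.1%. bHLH101 held 4.52% to 10.9% there, against 9.12% to 20.1% on control medium. The ratio of bHLH100 to bHLH101 was 1.96 to 8.36 in root libraries on the deficient medium, against 0.44 to 2.15 on control medium. It was highest in IMA1 OE roots on the deficient medium, at 8.36 and 6.94, against 4.10 and 4.39 in EYFP OE roots. In rosettes on the deficient medium bHLH100 led, with 35.2% to 44.2%, followed by bHLH38 with 23.3% to 27.2% and bHLH39 with 17.3% to 20.3%. The share of bHLH101 was 12.5% to 20.3%. In IMA1 OE rosettes these shares rest on sums of 1.33 and 0.80 RPKM. The ratio of bHLH38 to bHLH39 was 1.08 to 1.67 in all 8 rosette libraries on the deficient medium and 0.921 to 1.15 in the 8 root libraries. Rosette shares on control medium are not read, because the sums were 0.16 to 11.4 RPKM. In IMA3 OE rosettes on control medium bHLH101 made up most of the sum, at 0.42 and 0.29 RPKM, beside the overlapping GLU1 at 319 RPKM or more, and the part of GLU1 reads in these values was not tested.

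**Figure D4:**
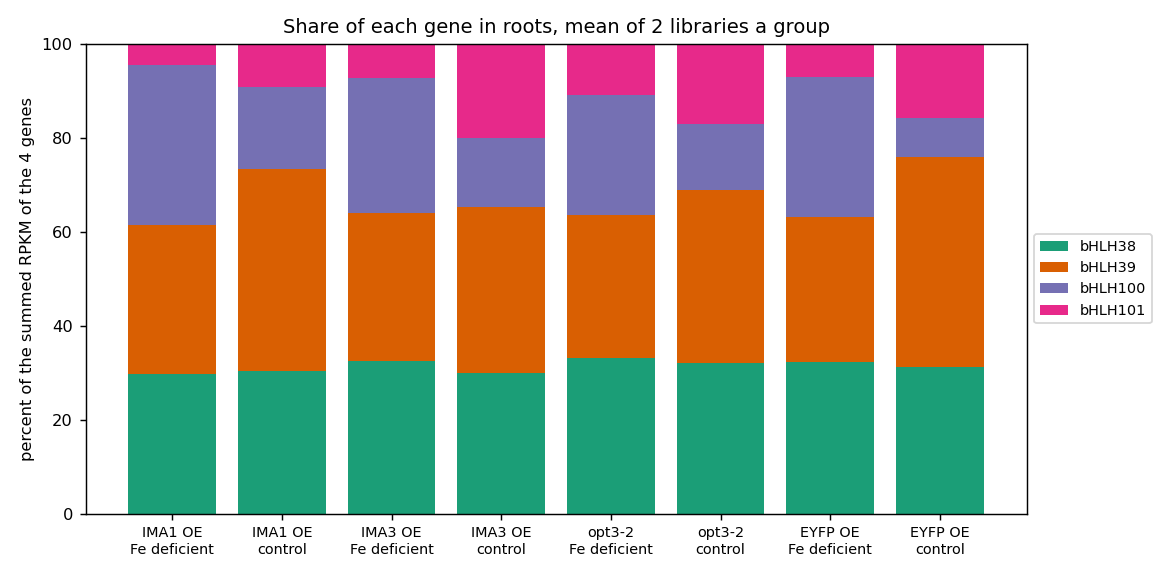
Share of each of the 4 genes in their summed RPKM (percent), as group means in roots by line and medium. In roots the share of bHLH100 is 25.6% to 34.1% on the deficient medium and 8.38% to 17.6% on control medium.

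Among 13 regulators known to act above the subgroup Ib genes, 8 rose in EYFP OE roots on the deficient medium and none fell (list median 0.80 on the log2 scale, against -0.02 over all genes tested). The peptide genes rose most, IMA3 by 4.95 (limma adjusted p = 7.71e-06), IMA2 by 3.31 (limma adjusted p = 0.00369) and IMA1 by 3.19 (limma adjusted p = 0.000647). The E3 ligase genes rose as well, BTSL1 by 2.48, BTSL2 by 1.47 and BTS by 1.02, and so did PYE, a bHLH repressor of the Fe response, by 0.79. Of the activators, ILR3 rose by 0.42 (limma adjusted p = 0.0107), and URI, bHLH34, bHLH104 and bHLH115 were not called, with values of -0.05 to 0.27. In EYFP OE rosettes 5 of the 13 rose and none fell (list median 0.20, against 0.00), IMA2 by 5.35, IMA1 by 5.26, BTS by 2.63, PYE by 1.89 and BTSL1 by 1.79. In rosettes of IMA1 OE on the deficient medium the same comparison as for the members called 5 of the 13 lower and none higher (list median -0.04, against -0.03). Their log2 fold changes were -7.88 for IMA3, -7.22 for IMA2, -2.83 for BTS, -2.42 for PYE and -1.37 for BTSL1. IMA2 was at 0.79 and 2.65 RPKM in IMA1 OE rosettes, against 210 and 433 RPKM in EYFP OE rosettes, with no overlap. In roots on control medium 2 of the 13 were higher in IMA1 OE (IMA1 itself and BTSL1), 1 in IMA3 OE (IMA3 itself) and 4 in opt3-2 (IMA3, IMA2, IMA1 and BTSL1). The values of IMA1 in IMA1 OE and of IMA3 in IMA3 OE can include reads from the transgene.

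FIT, the dimer partner, rose with the members in EYFP OE roots and not in EYFP OE rosettes. It was at 144 and 122 RPKM in EYFP OE roots on the deficient medium, against 41.2 and 40.1 RPKM on control medium, and rose by 1.70 (SE 0.15, limma adjusted p = 7.12e-05). On control medium FIT was at 78.7 and 61.5 RPKM in opt3-2 roots and was called higher there by 0.75 (limma adjusted p = 0.048), while in IMA1 OE it was at 65.8 and 55.4 RPKM (limma adjusted p = 0.389) and in IMA3 OE at 54.8 and 49.2 RPKM (limma adjusted p = 0.697). In rosettes FIT stayed at 0.99 to 1.99 RPKM in all 16 libraries and was not called between the media in EYFP OE. Of its 4 listed antagonists, bHLH18, bHLH19, bHLH20 and bHLH25, bHLH20 and bHLH25 reached the level tested in roots and neither was called in EYFP OE.

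Of 18 genes listed for root Fe acquisition, many of them known FIT targets, 16 rose in EYFP OE roots on the deficient medium and none fell (list median 3.62, against -0.02), among them IRT1 by 5.64 and FRO2 by 5.63. On control medium 9 of the 18 were higher in IMA1 OE roots (list median 1.06, against -0.01), 5 in IMA3 OE roots (0.80, against -0.02) and 12 in opt3-2 roots (2.11, against -0.02), and none was lower. IRT1 was at 161 and 136 RPKM in IMA1 OE roots, at 79.4 and 66.4 RPKM in IMA3 OE roots and at 261 and 281 RPKM in opt3-2 roots, against 13.1 and 22.8 RPKM in EYFP OE roots. This is the order of the group means of bHLH38, bHLH39 and bHLH100, and no line overlapped EYFP OE. In EYFP OE rosettes 11 of the 18 were high enough to test and 2 rose, IRT1 by 2.07 and FRO2 by 1.87, at levels of no more than 1.96 and 3.43 RPKM in any rosette library.

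Genes of Fe mobilisation and ORG1, which like bHLH38 and bHLH39 is known as responsive to the transcription factor OBP3, changed with the members in some of the rosette comparisons. All 5 mobilisation genes rose in EYFP OE rosettes on the deficient medium (list median 1.95, against 0.00), ZIF1, a vacuolar nicotianamine transporter, by 2.43, the reductase FRO3 by 2.39 and the phloem transporter OPT3 by 1.95. All 5 were lower in IMA1 OE than in EYFP OE rosettes on the deficient medium (list median -2.46, against -0.03). Between the media, 0 of the 5 were called in IMA3 OE rosettes (list median 1.50, against 0.01) and 2 rose in opt3-2 rosettes (1.61, against 0.03), where 3 and 4 members were called. OPT3 is among these 5 genes and is the gene mutated in opt3-2, so the counts of these lines are not compared. In EYFP OE roots 4 of the 5 rose (list median 1.30, against -0.02). ORG1 was at 22.3 and 20.8 RPKM in IMA1 OE rosettes on the deficient medium, against 284 and 361 RPKM in EYFP OE rosettes, a log2 fold change of -3.86 (limma adjusted p = 0.0013). On the deficient medium ORG1 rose by 3.46 in EYFP OE rosettes (limma adjusted p = 0.00444), by 3.10 in opt3-2 rosettes (limma adjusted p = 0.0135) and by 1.76 in EYFP OE roots (limma adjusted p = 2.06e-05). In IMA3 OE rosettes its change of 2.46 was not called (limma adjusted p = 0.136). OBP3 itself was at 2.19 to 4.14 RPKM in rosettes and 11.4 to 19.2 RPKM in roots and was not called in EYFP OE in either tissue.

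**Figure D5:**
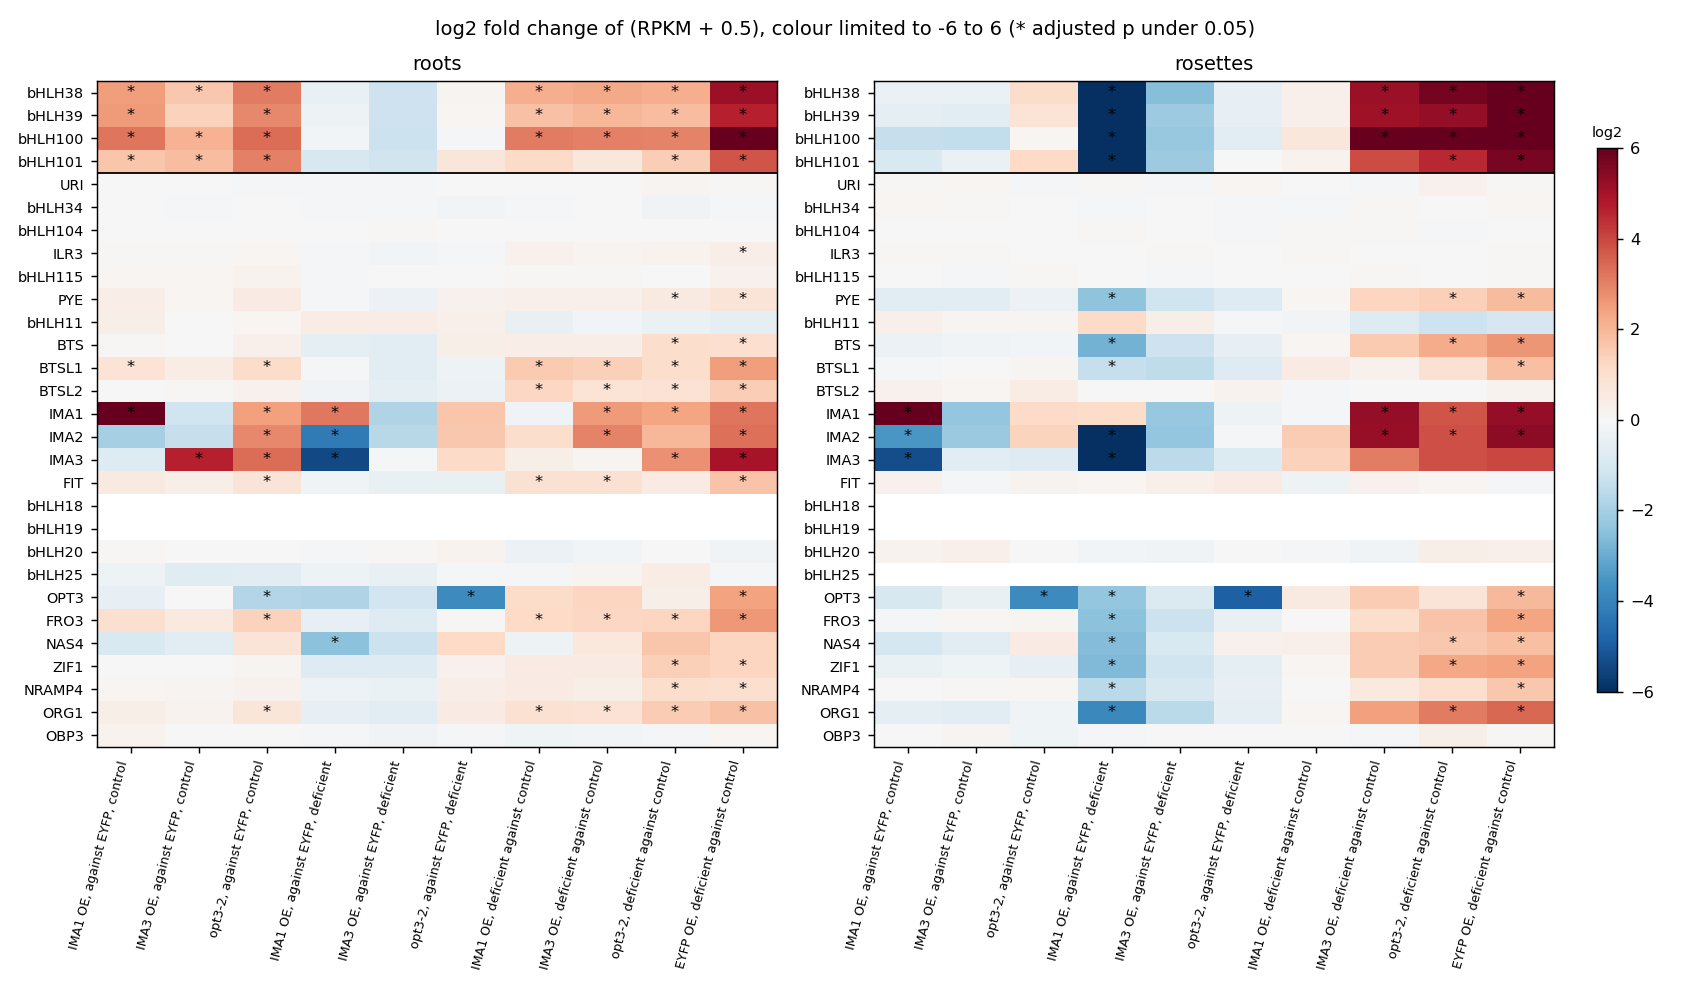
Log2 fold change of the 4 genes, the listed regulators, FIT and its antagonists, the mobilisation genes, ORG1 and OBP3 (rows) in selected comparisons (columns), on log2(RPKM + 0.5). In IMA1 OE rosettes on the deficient medium the 4 genes, IMA2, IMA3, BTS, PYE, ORG1 and the mobilisation genes are lower than in EYFP OE, and FIT is not.

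The genes whose profiles were most like those of the members differed between the tissues. Likeness was the mean of a gene's 4 Pearson correlations with the members over the 16 libraries of a tissue, which share lines and media, and it is given as a description. In roots, FRO3 came first with 0.964, then UGT72E1 with 0.963, MTPA2 (the vacuolar zinc transporter listed as MTP3) with 0.954 and AT3G07720 with 0.950. PP2-A8, FRO2, GSTL1 and IRT1 followed, at 0.949 to 0.946, among 1068 candidate genes. In rosettes 3 genes with no symbol in the gene table led, AT1G47407 with 0.991, AT1G47402 with 0.989 and AT2G44744 with 0.987. BTS with 0.980, ORG1 with 0.976, ZIF1 with 0.963, AT1G12030 with 0.962 and AT2G30760 with 0.955 came next, among 1322 candidates. The members' own pairwise correlations were 0.877 to 0.992 in roots and 0.98 to 0.999 in rosettes. Of 12 annotated genes within 2 places of a member, the members left out, 10 were high enough to test, and none was called in the EYFP OE response of either tissue, in IMA1 OE or opt3-2 roots on control medium, or in IMA1 OE rosettes on the deficient medium (log2 fold change -0.55 to 0.44).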

How the data were processed

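Polyadenylated RNA of 16 groups with 2 libraries each was sequenced from TruSeq stranded libraries, per the labels' protocols. The submitters' processing notes name bcl2fastq 1.8.4, Trimmomatic 0.35, Bowtie2 2.0.6, edgeR 3.12.1, limma 3.26.9 and TAIR10, with no role or order. The authors deposited 26 tables, each with 4 libraries of 2 groups on an RPKM scale. No header names that unit; it was taken from the values, whose columns sum to 654957 to 743167. Each table also holds a log2 ratio of the group means and a Z-test p-value, which the authors deposited and which was adjusted here by the Benjamini-Hochberg method. Depth is unknown.

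Values were put on log2(RPKM + 0.5). The test covered genes whose 16-library mean in a tissue reached 0.5 RPKM, which left 20577 genes for roots and 19521 for rosettes. Every table sets one group against an EYFP OE group, so comparisons with EYFP OE used their own table. The response within another line was the difference of that line's 2 tables against EYFP OE on control medium, and the remaining contrasts were differences of such fold changes. The residual spread came from the 8 groups of the tissue (8 degrees of freedom) and was moderated with a trend by limma 3.58.1 in R 4.3.3, 2-sided, with Benjamini-Hochberg adjustment over all tested genes. For differences between the tissues the moderated variances of both were added, with Welch-Satterthwaite degrees of freedom. These were adjusted over the 18383 genes tested in both tissues. There were 36 comparisons. Only the EYFP OE response was tried on simulated data, with library values in 1 fit in place of separate tables and the same spread in all groups of a gene. The other contrasts were not simulated. Nothing in the labels says that the 2 libraries of a group came from separate cultures, so p-values measure the spread between these libraries, which may be technical. A level is a library's mean over its tables.

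The 4 genes, the gene lists and the filter were chosen with earlier results of these data known. The text names the 4 genes, members of those lists, the 8 genes per tissue most like the 4, and their neighbours; PIP5K4 and GLU1 were named for their overlap. Promoter and coding sequences came from RefSeq TAIR10.1, matched by locus identifier; the deposited tables hold no coordinates. One label of the rosette samples calls them roots, against their title and tissue labels; the marker genes were those of rosettes. Other pseudocounts, filters, spreads, the authors' p-values, a replicate block and the omission of single libraries were tried.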

Additional observations from a re-analysis of the deposited data

Results flagged for a closer look

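The deficiency response differed from that of EYFP OE, by a direct test of the difference in log2 fold change (limma, Benjamini-Hochberg adjusted over all genes), in 10 cases in roots. In IMA1 OE the line response minus the EYFP OE response was -2.99 for bHLH38 (SE 0.37, adjusted p = 0.0123), -3.35 for bHLH100 (SE 0.46, adjusted p = 0.0253) and -2.64 for bHLH101 (SE 0.39, adjusted p = 0.0457). In IMA3 OE it was -2.83 for bHLH38 (SE 0.37, adjusted p = 0.0171), -3.36 for bHLH100 (SE 0.46, adjusted p = 0.0239) and -3.05 for bHLH101 (SE 0.39, adjusted p = 0.0168). In opt3-2 it was -2.95 for bHLH38 (SE 0.37, adjusted p = 0.00388), -2.77 for bHLH39 (SE 0.49, adjusted p = 0.0373), -3.47 for bHLH100 (SE 0.46, adjusted p = 0.00578) and -2.28 for bHLH101 (SE 0.39, adjusted p = 0.0354). The 3 lines share the 4 EYFP OE root libraries. Of these calls, bHLH38 and bHLH100 in opt3-2 held without any one of the 8 libraries. In IMA1 OE the calls of bHLH100 and bHLH101 were lost without any library except deficient EYFP OE replicate 1 and control IMA1 OE replicate 2, and that of bHLH38 without replicate 2 of EYFP OE on either medium, deficient IMA1 OE replicate 2 or control IMA1 OE replicate 1 (adjusted p of 0.0511 to 0.251). In IMA3 OE each call was lost without deficient EYFP OE replicate 2 or any of the 4 control libraries of IMA3 OE and EYFP OE (0.0628 to 0.115). In opt3-2 the call of bHLH39 was lost without any library except control EYFP OE replicate 1, and that of bHLH101 without any except deficient EYFP OE replicate 1 (0.0623 to 0.185). Both deficient IMA3 OE libraries are those with ribosomal RNA-type features at 40640 and 89780 RPKM, and the part of this in the IMA3 OE differences was not tested. With no filter on low values 0 of these calls were made for IMA1 OE, 0 for IMA3 OE and 1 for opt3-2.

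Between the tissues, 12 of 18383 genes were called in either direction for IMA1 OE on control medium, with bHLH100 as the only member. Its rosette levels there were low, at 0.02 and 0.1 RPKM in IMA1 OE and at 2.54 and 0.19 RPKM in EYFP OE. In rosettes alone it was not called. The effect of the line in rosettes minus that in roots was -4.60 for bHLH100 (SE 0.74, limma adjusted p = 0.0262). That call was lost without any one of 4 libraries, EYFP OE rosette replicate 1, IMA1 OE root replicate 1 or either IMA1 OE rosette replicate (adjusted p of 0.0563 to 0.429), and with no filter on low values.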

How the results depend on the processing

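Depth is unknown, so which low rosette values on control medium can be told from 0 cannot be said, and 2 libraries a group limit every test. Over single-gene values, 1531 results under an alternative kept direction and side of the threshold, 174 lost a call, 25 gained one and 30 changed sign. Averaging libraries over their tables and asking for at least 2 RPKM changed no call. The cause of the changes below was not tested. A spread from 4 libraries leaves few degrees of freedom, and testing without a filter adjusts over more genes. The part of either in the changes was not tested.

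Counts of the 4 genes called are given with the reported count in parentheses. The number called over all genes changed with the setting too. These counts alone therefore do not show that a lost or gained call is particular to the 4 genes. With the spread of the compared libraries alone, 0 were called for EYFP OE rosettes (4), IMA1 OE roots on control medium (4), IMA1 OE rosettes on the deficient medium (4) and opt3-2 rosettes on control medium against deficient EYFP OE (4), and 2 for IMA1 OE roots on control medium against deficient EYFP OE (4). With no filter on low values, 0 were called for the IMA3 OE rosette response (3), IMA3 OE roots on control medium (3), the root response of IMA1 OE (3) or IMA3 OE (3) minus that of EYFP OE and the tissue difference of IMA1 OE (1), 1 for that of opt3-2 minus EYFP OE in roots (4), and 2 for the opt3-2 root response (4) and IMA1 OE roots on control medium (4). With a pseudocount of 0.1, 1 was called for the IMA3 OE rosette response (3) and 2 for that of opt3-2 (4). With a pseudocount of 1, 1 was called for IMA3 OE roots on control medium (3), 1 for the IMA1 OE minus EYFP OE response in roots (3) and 3 for that in rosettes (0).

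By the p-values of the authors' deposited tables, on control medium in roots 1 was called for IMA1 OE (4), 0 for IMA3 OE (3) and 2 for opt3-2 (4), and on the deficient medium 3 for IMA3 OE roots (0), 4 for IMA3 OE rosettes (0) and 1 for opt3-2 rosettes (0). Ranked by Spearman correlation, 4 of the 8 most similar genes were shared in roots and 5 of 8 in rosettes. Signs changed in the authors' deposited table for bHLH100 in opt3-2 rosettes on control medium (-0.29) and bHLH101 in opt3-2 rosettes on the deficient medium (-0.0562), and with a pseudocount of 0.1 for bHLH100 in the IMA3 OE minus EYFP OE response in rosettes (0.52).

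With a replicate block, 3 were called for the IMA1 OE minus EYFP OE response in rosettes (0), and the counts of the other comparisons were unchanged or moved by less than 1.5 times. Equal replicate numbers carry no stated meaning. Deviations of libraries with the same number correlated at 0.019 to 0.483 over 28 root pairs of groups (26 over 0.1) and at -0.01 to 0.566 over 28 rosette pairs (27 over 0.1). In the IMA1 OE rosette response the block called 2 genes over all (0).

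Leaving out each library in turn, the number called ranged from 0 to 0 for the IMA3 OE rosette response and for IMA3 OE roots on control medium, from 2 to 2 for the opt3-2 root response, from 0 to 4 for the opt3-2 rosette response, and from 2 to 4 for IMA1 OE roots on control medium. For responses minus that of EYFP OE it ranged from 0 to 3 in IMA1 OE and IMA3 OE roots, from 2 to 3 in opt3-2 roots and from 0 to 4 in IMA1 OE rosettes. For the tissue differences it ranged from 0 to 1 in IMA1 OE, IMA3 OE and opt3-2.

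Values that were not called changed sign as follows. Against EYFP OE in rosettes on control medium, the log2 fold change ranged in IMA1 OE from -1.04 to 0.26 for bHLH38, from -1.31 to 0.17 for bHLH39 and from -1.81 to 0.00 for bHLH101. In IMA3 OE it ranged from -1.03 to 0.25 for bHLH38, from -1.37 to 0.0911 for bHLH39 and from -1.28 to 0.48 for bHLH101, and in opt3-2 from -0.0826 to 1.72 for bHLH39 and from -0.94 to 1.20 for bHLH100. On the deficient medium it ranged in IMA1 OE roots from -0.63 to 0.0012 for bHLH39 and from -0.48 to 0.18 for bHLH100. In opt3-2 roots it ranged from -0.0097 to 0.35 for bHLH38, from -0.17 to 0.36 for bHLH39 and from -0.43 to 0.23 for bHLH100. In opt3-2 rosettes it ranged from -1.25 to 0.24 for bHLH38, from -1.34 to 0.32 for bHLH39, from -1.60 to 0.36 for bHLH100 and from -0.55 to 0.55 for bHLH101. For bHLH100 the response minus that of EYFP OE in rosettes ranged from -1.88 to 0.25 in IMA3 OE and from -1.81 to 0.33 in opt3-2, and its EYFP OE tissue difference from -0.35 to 1.77.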
